A study of Homo sapiens with 6 samples.

Results

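HK-2 is an immortalized human cell line derived from the epithelium of the renal proximal tubule. Its response to a day of cisplatin was described from 4 arrays, 2 of untreated HK-2 cells and 2 of HK-2 cells kept in 50 μM cisplatin for 24 h. The series holds 6 arrays in 3 groups, and the remaining 2 arrays, of cells given the same dose for 6 h, shared the fit and were used only to place the late values. All 3 groups were grown in the same serum-free keratinocyte medium that contained bovine pituitary extract, EGF and glutamine. No time in culture was given for the untreated cells, so exposure to cisplatin and time in culture cannot be told apart. The labels call the arrays of a group biological replicates without saying how the cultures were separated, so the p-values measure the spread between these arrays. All genes were members: 18239 genes of the array were tested, each read from the probe set that was brightest on average over all 6 arrays. Of 15 proximal tubule marker genes, 11 were measured and 9 of these had a mean log2 signal under 5, whereas 4 of 6 genes of cultured epithelium were above it, so the tissue named in the labels was not apparent from its defining markers. All measured markers of the loop of Henle and distal nephron (4 of 4), of podocytes (1 of 1) and of endothelium (4 of 4) were under 5 as well, and so were 4 of 5 fibroblast and 3 of 4 leukocyte markers.

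Cisplatin is a platinum drug whose use is limited by injury to the proximal tubule, where it is taken up by cation transporters. Inside the cell it binds purine bases and forms adducts and crosslinks in DNA, which stall DNA and RNA polymerases and activate p53 and stress kinases. Cells answer such damage with stress-induced transcription factors and with inhibitors of the cell cycle. An RNA that decays quickly depends more than others on continued transcription.

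To examine how much of the transcriptome differed after 24 h, each gene was tested with limma at an adjusted p under 0.05. Values are log2 signals, differences between groups are log2 fold changes with the standard error (SE) of the fit, and each group had n = 2 arrays. Rises and falls are given on this log2 scale, where 1 is a 2-fold change. At 24 h, 5685 genes were higher than in untreated cells (31.2% of those tested) and 4201 were lower (23%). Changes of at least 2-fold were passed by 863 genes upwards (4.73%) and by 1347 downwards (7.39%). The shares of all genes are the background against which the counts of each gene class are read below. These shares depended on signal. Of the 9829 genes with a mean log2 signal of at least 5, 3397 were higher and 3621 were lower. The lower share was 42.4% at a mean signal of 6 to 7 and 1.12% under 3. For a class made mostly of genes with a signal of at least 5, those 9829 genes are the closer background. In 4271 genes the 24 h arrays overlapped the control arrays, and none of these passed (0 of 4271).

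The replicate arrays correlated at 0.997 in untreated cells and 0.996 at 24 h over all probe sets, and arrays of different groups at 0.961 to 0.985. The deposited values set every array to one distribution, so every fold change is set against the bulk of the same array. The 36 control probe sets for spike-in RNAs were higher at 24 h by 0.89, the 9 hybridization spike-ins among them by 0.41 and the 12 poly-A spike-ins by 1.21, and all 23 nonspecific control probe sets were higher, by 0.27 on average. Scaled to all spike-ins, the median over all genes moved from 0.10 to −0.78, so that rises smaller than the shift became falls while falls grew larger. Fewer cells and less RNA per cell cannot be told apart in these bulk samples, and whether the spike-in shift comes from the amount of RNA or from labelling was not tested. Between its 3′ and 5′ probe sets beta-actin, which reports RNA integrity, differed by 2.07 and 1.11 on the control arrays and by 1.97 and 2.83 at 24 h. For GAPDH, read in the same way, the difference was 0.27 and 0.26 on the control arrays and 0.3 and 0.39 at 24 h. Both 24 h values of GAPDH were thus above both control values, whereas those of beta-actin overlapped. The part of RNA integrity in the results was not tested.

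**Figure D1:**
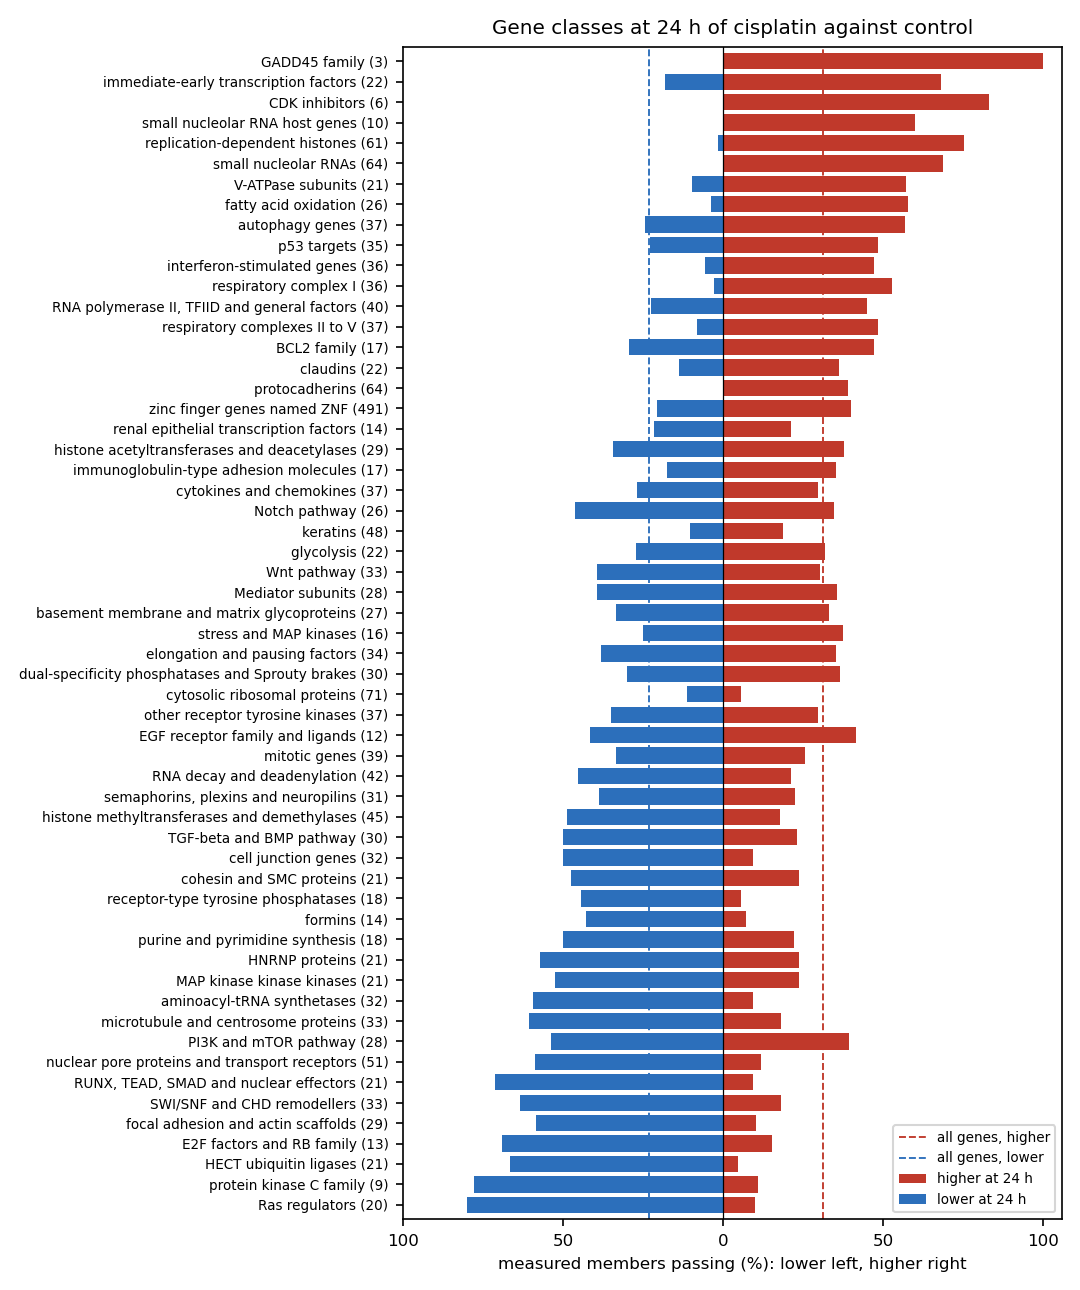
Share of the measured members of each gene class (number of members in brackets) that passed at 24 h against control, lower members to the left and higher members to the right, in percent. Dashed lines give the shares of all 18239 genes (31.2% higher, 23% lower). All 3 GADD45 genes were higher and 16 of 20 Ras regulators were lower. Scaled to all spike-ins, the medians of the host genes, the histones, the small nucleolar RNAs and every class plotted below them were under 0.

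Stress-induced transcription factors held several of the largest rises. Of 22 measured immediate-early transcription factors, genes that are induced within minutes of a stimulus without new protein synthesis, 15 were higher and 4 were lower at 24 h. The class median was 1.36, against 0.10 for all genes, and it stayed above 0 when arrays were scaled to all spike-ins (0.48) or to the poly-A spike-ins (0.15). Scaled to all spike-ins 12 members were higher and 9 lower, and scaled to the poly-A spike-ins 9 were higher and 10 lower. ATF3, a stress-induced factor of the ATF/CREB family, read 5.00 and 5.05 in untreated cells, 9.02 and 9.16 at 6 h, and 10.05 and 10.10 at 24 h. Its arrays formed 3 separate levels, and the difference at 24 h was 5.05 ± 0.08 (SE, adjusted p = 3.89e-08). KLF4, a zinc finger factor linked to growth arrest, read 4.05 and 4.11 in untreated cells and 8.52 and 8.59 at 24 h, a rise of 4.48 ± 0.08. FOS, a partner of JUN in the AP-1 dimer, went from 5.00 and 5.49 to 9.47 and 9.43, a rise of 4.20 ± 0.14. In both genes the 24 h arrays were far above the control arrays, and the 6 h arrays lay between them.

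The related FOSB rose by 2.81 ± 0.10 and JUNB by 1.93 ± 0.09, both members of AP-1. IER5, an early response gene that acts on heat shock factor, rose by 2.61 ± 0.08. The nuclear receptors NR4A2 and NR4A3 rose by 2.14 and 2.09, and the zinc finger factor EGR1 by 1.56 ± 0.08. MAFF, a small basic leucine zipper factor, read 6.28 and 6.31 in untreated cells and 7.97 and 8.19 at 24 h, a rise of 1.79 ± 0.10. The class was not uniform. FOSL1, an AP-1 member induced by growth factors, read 9.18 and 8.98 in untreated cells and 6.77 on both 24 h arrays, a difference of −2.32 ± 0.09. FOSL2 and KLF6 fell as well, with differences of −1.61 and −1.47.

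Promoters were taken from 250 bases before to 50 bases after the gene start. Those shown had to belong to immediate-early genes that were higher at 24 h. They also had to hold either of the 2 elements for which such genes are best known. The promoters of MAFF and EGR1 met both conditions. Both promoters come from RefSeq (GRCh38.p14) and run along the plus strand. The capitals in MAFF mark a cAMP response element, the ATF/CREB site TGACGTCA, whose first base lies 54 bases before the start. The capitals in EGR1 mark CArG boxes, the sites of serum response factor, which begin 105 and 83 bases before the start.
MAFF (chr22:38201744-38202043): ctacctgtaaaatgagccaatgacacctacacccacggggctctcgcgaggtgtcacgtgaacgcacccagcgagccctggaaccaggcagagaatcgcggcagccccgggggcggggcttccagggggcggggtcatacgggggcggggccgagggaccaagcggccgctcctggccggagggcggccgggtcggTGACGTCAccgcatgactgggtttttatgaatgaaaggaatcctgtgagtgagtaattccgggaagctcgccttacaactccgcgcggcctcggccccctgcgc
EGR1 (chr5:138465229-138465528): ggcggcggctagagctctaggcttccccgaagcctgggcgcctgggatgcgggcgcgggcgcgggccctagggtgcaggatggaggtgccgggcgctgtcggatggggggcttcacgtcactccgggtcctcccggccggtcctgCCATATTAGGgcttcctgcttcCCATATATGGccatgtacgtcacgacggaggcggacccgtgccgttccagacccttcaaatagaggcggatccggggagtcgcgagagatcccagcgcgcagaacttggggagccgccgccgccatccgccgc
On either strand, the cAMP response element was present in 1.98% of all 27305 promoters of this length, in 2.63% of the 14492 that belonged to genes tested, in 5.75% of those of genes higher by 2-fold and in 2.3% of those of genes lower by 2-fold. CArG boxes were present in 1.29%, 1.26%, 1.58% and 1.15% of the same groups. Of 18 immediate-early genes with a promoter, MAFF and JUND held the cAMP response element and EGR1 and SRF a CArG box. JUND and SRF did not rise with MAFF and EGR1, with differences of 0.03 and −0.35 at 24 h. ATF3, KLF4 and FOS held neither element in this window. The letters CCAAT were found on either strand in 28 of the 50 promoters with the largest rises and in 8 of the 50 with the largest falls, against 36.4% of those tested. They were found in 42.8% of promoters of genes higher by 2-fold and in 34.2% of those lower by 2-fold. Among the 50 largest rises and the 50 largest falls, 1 and 0 promoters held the cAMP response element, and 0 and 1 held a CArG box. A match is a description of the sequence and says nothing of binding.

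**Figure D2:**
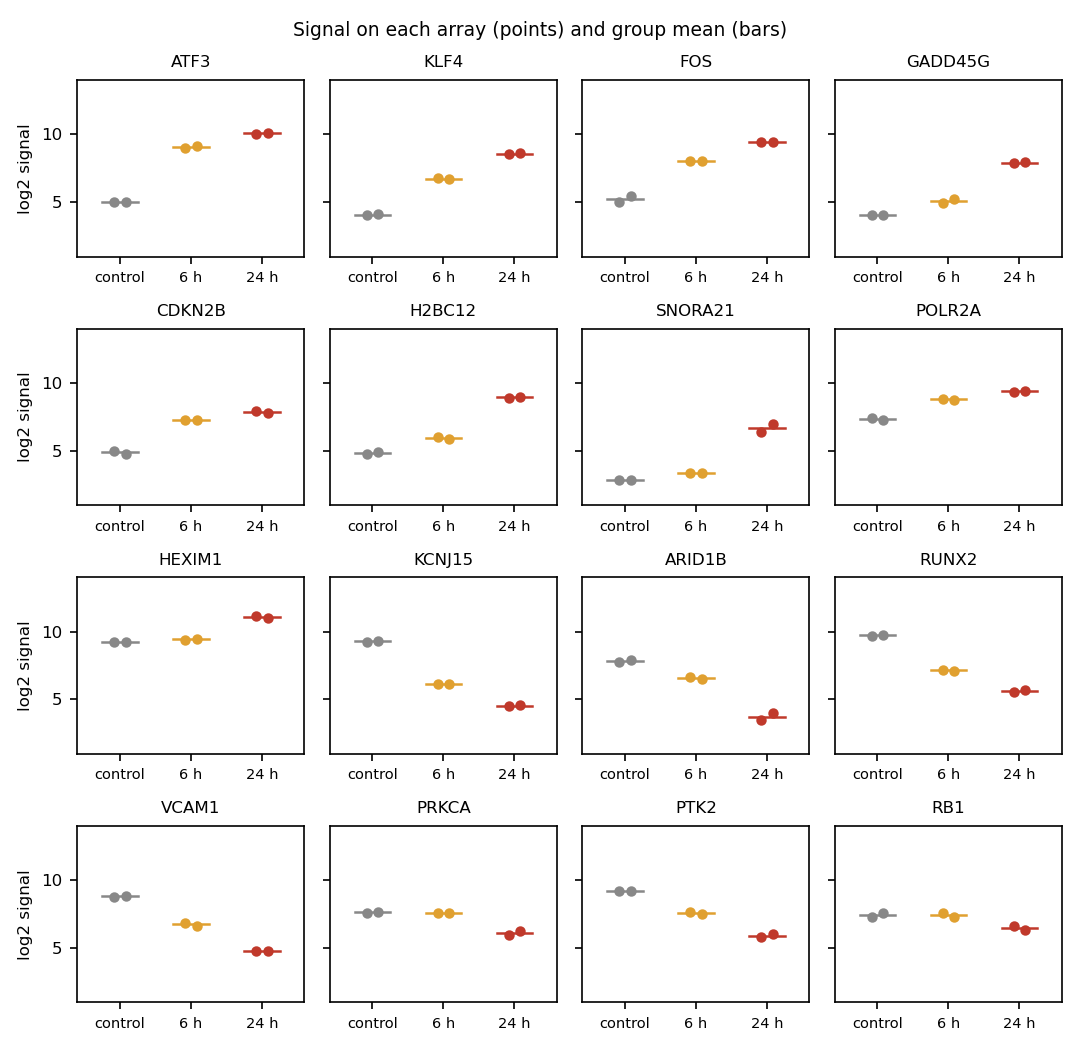
Log2 signal of 16 genes on each array (points) with the group mean (bars) for untreated cells, 6 h and 24 h of cisplatin. In the upper rows ATF3, KLF4, FOS, GADD45G, CDKN2B, H2BC12, SNORA21, POLR2A and HEXIM1 were higher on both 24 h arrays than on both control arrays. KCNJ15, ARID1B, RUNX2, VCAM1, PRKCA, PTK2 and RB1 were lower on both.

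Other regulators were among the largest rises over all genes. DLX2, a homeobox factor of forebrain and craniofacial development, had the largest rise of all genes, from 3.17 and 2.74 in untreated cells to 8.46 and 8.50 at 24 h (5.52 ± 0.13). RASD1, a Ras-like GTPase induced by dexamethasone, rose by 4.34 ± 0.09 from signals of 3.05 and 3.23. Both genes were near the floor of the array in untreated cells and well above it at 24 h, so the size of their change depends on that floor. SNAI1, a repressor of E-cadherin, rose by 3.33 ± 0.12. KLF5, a zinc finger factor of proliferating epithelium, rose by 2.47 ± 0.11. ULBP2, a stress ligand of the natural killer cell receptor NKG2D, rose by 3.54 ± 0.09.

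Inhibitors of the cell cycle rose with the stress factors. All 3 genes of the GADD45 family, small proteins that bind stress kinases and PCNA, were higher. GADD45G had 4.06 and 4.08 in untreated cells, 4.97 and 5.23 at 6 h, and 7.90 and 7.93 at 24 h. Most of its rise of 3.84 ± 0.10 thus lay between 6 h and 24 h (2.81, adjusted p = 8.20e-06). GADD45A, also a p53 target, rose by 2.57 ± 0.08 and GADD45B by 2.72 ± 0.08. Of 6 measured CDK inhibitors 5 were higher and none was lower. CDKN2B, the inhibitor p15 of CDK4 and CDK6, went from 4.96 and 4.80 to 7.95 and 7.81 at 24 h, a rise of 3.0 ± 0.09. CDKN1A (p21), the main p53-induced inhibitor, rose by 2.42 ± 0.08 and CDKN2D (p19) by 2.11 ± 0.08. The median of this class was 1.32, and 0.43 when scaled to all spike-ins, where 3 genes were higher and 3 were lower.

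The p53 targets moved in both directions. Of 35 measured targets 17 were higher and 8 were lower, with a median of 0.26 that became −0.62 when scaled to all spike-ins. TP53I3, an oxidoreductase, rose by 2.35 ± 0.08, TNFRSF10D, a decoy receptor of TRAIL, by 2.08 ± 0.08, and PMAIP1 (NOXA), a BH3-only inducer of apoptosis, by 1.67 ± 0.14. GDF15, a secreted stress cytokine and p53 target, read 9.63 on both control arrays, 9.70 on both 6 h arrays, and 8.25 and 8.23 at 24 h. It differed little from control at 6 h (0.06) and fell by 1.39 ± 0.08 at 24 h. KITLG, the ligand of KIT, fell by 1.90 ± 0.08, but only 2 of its 4 probe sets had that sign. In the BCL2 family 8 of 17 genes were higher and 5 were lower. BCL2L1, which encodes the prosurvival protein BCL-XL, read 9.53 and 9.46 in untreated cells and 7.23 and 7.66 at 24 h, a difference of −2.05 ± 0.13. BOK, a pore-forming member, fell by 1.26 ± 0.08.

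Histone and small nucleolar RNA genes had far more higher than lower members on the deposited scale. Of 61 replication-dependent histone genes, whose messages normally end in a stem-loop and carry no poly-A tail, 46 were higher and 1 was lower. H2BC12 read 4.75 and 4.89 in untreated cells, 6.01 and 5.87 at 6 h, and 8.90 and 8.99 at 24 h, a rise of 4.13 ± 0.09. Its 24 h arrays were above all others, and 3.01 of the rise fell after 6 h (adjusted p = 5.58e-06). H2AC17 and H2BC8 both rose by 1.99, and the linker histone H1-2 by 1.82. H4C3, the exception, had 12.71 and 12.74 in untreated cells and 11.86 and 11.87 at 24 h, a difference of −0.86 ± 0.08. Only 8 of the 61 genes had a mean signal of at least 5, and 6 of these 8 were higher. Histone genes share near-identical coding sequence, so probe sets cannot always tell the copies apart.

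Of 64 small nucleolar RNAs, guides for the chemical modification of ribosomal RNA, 44 were higher and none was lower. SNORA21 read 2.85 and 2.88 in untreated cells, 3.34 on both 6 h arrays, and 6.42 and 7.0 at 24 h. The 24 h arrays differed from each other more than the control arrays did, and both were far above them (3.84 ± 0.16). SNORA6 rose by 3.79 ± 0.16, SNORA33 by 3.36 ± 0.13 and SNORA65 by 2.59 ± 0.10. These RNAs lie within introns of host genes and their probes may also read the host transcript. Of 10 host genes named SNHG 6 were higher and none was lower, with SNHG9 at 2.62 ± 0.09 and SNHG7 at 1.31 ± 0.08. The medians of histones, small nucleolar RNAs and host genes were 0.65, 0.61 and 0.73. They became −0.23, −0.27 and −0.15 when scaled to all spike-ins and stayed above 0 with the hybridization spike-ins (0.24, 0.20 and 0.32). Only 13 of the 64 small nucleolar RNAs had a mean signal of at least 5, and 12 of these were higher.

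The machinery of RNA polymerase II changed in both directions. Of 40 genes of the polymerase, TFIID and the general factors 18 were higher and 9 were lower, with a median of 0.22 that became −0.66 when scaled to all spike-ins. POLR2A, the catalytic subunit of the polymerase, read 7.39 and 7.25 in untreated cells, 8.84 and 8.73 at 6 h, and 9.35 and 9.39 at 24 h, a rise of 2.05 ± 0.09. TAF13, a TFIID subunit, rose by 1.97 ± 0.12 and TAF7 by 1.23 ± 0.08. TAF4, another TFIID subunit, fell by 1.55 ± 0.08 and GTF2F2, the small subunit of TFIIF, fell by 1.66 ± 0.08.

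The elongation and pausing factors split likewise, with 12 of 34 higher and 13 lower. HEXIM1, which holds the elongation kinase P-TEFb inactive, read 9.23 and 9.25 in untreated cells, 9.38 and 9.46 at 6 h, and 11.16 and 11.03 at 24 h. The 6 h arrays were close to control and the rise of 1.85 ± 0.08 was seen at 24 h. BRD2, a bromodomain reader of acetylated histones, rose by 1.87 ± 0.08, and CCNT1, the cyclin of P-TEFb, by 1.27 ± 0.08. CTR9, a subunit of the PAF complex, rose by 1.33 ± 0.08. By contrast CDK13, a kinase of the polymerase tail, fell by 1.47 ± 0.10, with 2 of its 3 probe sets of that sign. Of 28 Mediator subunits 10 were higher and 11 were lower. MED18 of the head module rose by 1.33 ± 0.10. MED13L and CDK19, both of the kinase module, changed by −2.23 ± 0.11 and −1.45 ± 0.08, and MED27 fell by 1.86 ± 0.08. Only 3 of 5 probe sets of CDK19 and 2 of 3 of MED27 had that sign.

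Among 491 zinc finger genes named ZNF, many of them repressors with a KRAB domain, 197 were higher and 101 were lower. The share that was higher (40.1%) was above that of all genes, and the share that was lower (20.6%) was close to it. ZNF425 rose by 3.01 ± 0.08 and ZNF222 by 2.71 ± 0.09, whereas ZNF609 fell by 2.58 ± 0.17. The class median was 0.16, and −0.73 when scaled to all spike-ins. Genes of RNA decay were lower more often than higher, 19 against 9 of 42. TOB1, an antiproliferative adaptor of the CCR4-NOT deadenylase, nevertheless rose by 2.72 ± 0.09, its relative TOB2 by 1.74 ± 0.14 and ZFP36, which binds AU-rich messages, by 1.30 ± 0.08.

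Secreted signals showed large changes with no common direction. Of 37 cytokines and chemokines 11 were higher and 10 were lower. IL11, a cytokine of the IL6 family, read 5.10 and 5.15 in untreated cells and 8.33 and 8.34 at 24 h, a rise of 3.20 ± 0.08. IL12A, a subunit of interleukin 12, rose by 1.93 ± 0.10. TNFSF10 (TRAIL), a death ligand, read 11.39 and 11.47 in untreated cells and 8.08 and 8.03 at 24 h, a difference of −3.37 ± 0.08. LIF and IL6, also of the IL6 family, changed by −1.97 and −1.89, and the neutrophil chemokine CXCL2 fell by 1.81. Within that family IL11 was thus high on both 24 h arrays and LIF and IL6 were low on both.

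Of 36 interferon-stimulated genes 17 were higher and 2 were lower. IFI6, an antiapoptotic membrane protein, rose by 2.43 ± 0.10, IFI27 by 1.8 ± 0.10, IRF7, the regulator of type I interferon genes, by 1.64 ± 0.13, and the ubiquitin-like ISG15 by 1.48 ± 0.08. DDX60, a helicase that promotes RIG-I signalling, fell by 0.96 ± 0.12. The class median was 0.26, and −0.62 when scaled to all spike-ins. Among the 19 genes with a mean signal of at least 5, 11 were higher and none was lower. Of all 9829 genes with such a signal, 3397 were higher and 3621 were lower.

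Growth factor receptors and their ligands included several large falls. Of 12 genes of the EGF receptor family and its ligands 5 were higher and 5 were lower. The 5 lower genes all fell by at least 2-fold, and 1 of the higher genes rose as far. NRG1, the ligand of ERBB3 and ERBB4, read 10.22 and 10.19 in untreated cells and 7.22 and 7.40 at 24 h, a difference of −2.89 ± 0.09. EREG and TGFA, ligands of the EGF receptor, changed by −1.89 and −1.67. EGFR itself fell by 1.78 ± 0.10, with 4 of its 8 probe sets of that sign. HBEGF, another ligand of this receptor, went from 8.22 and 8.25 to 10.37 and 10.50, a rise of 2.20 ± 0.08. The ligands thus moved in opposite directions.

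Of 37 other receptor tyrosine kinases 11 were higher and 13 were lower, 1 and 7 of them by 2-fold. The 11 became 6 without control replicate 2 or 24 h replicate 1 and 7 without 24 h replicate 2. FGFR3 rose by 3.21 ± 0.09 from signals of 4.89 and 4.71. IGF1R, the receptor of insulin-like growth factors, fell by 3.11 ± 0.13 (5 of 7 probe sets), MET, the receptor of hepatocyte growth factor, fell by 2.32 ± 0.08 and ROR1, a receptor of WNT5A, fell by 2.24 ± 0.09. Downstream of these receptors, IRS1, the adaptor of the insulin receptors, read 8.75 and 8.86 in untreated cells and 5.59 and 5.36 at 24 h, a difference of −3.33 ± 0.11. RPTOR, the scaffold of mTOR complex 1, fell by 2.31 ± 0.10 (4 of 6 probe sets). PIK3CB, a catalytic subunit of PI3 kinase, fell by 1.77 ± 0.13. In the PI3K and mTOR list as a whole 11 of 28 genes were higher and 15 were lower.

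In the TGF-beta and BMP pathway 7 of 30 genes were higher and 15 were lower. BAMBI, a decoy receptor of TGF-beta, rose by 3.51 ± 0.13, and the ligands TGFB3 and BMP4 by 1.68 and 1.44. GREM1, a BMP antagonist, fell by 2.18 ± 0.11, and INHBE, an inhibin beta subunit, fell by 1.99 ± 0.11. In the Wnt pathway 10 of 33 genes were higher and 13 were lower, 10 of the latter by 2-fold. WNT5B fell by 2.66 ± 0.10, the receptor-degrading ligase ZNRF3 fell by 2.54 ± 0.14 and the kinase GSK3B fell by 1.61 ± 0.09, while WNT3 rose by 1.74 ± 0.14. DKK1, a secreted Wnt inhibitor, read 4.65 and 4.63 in untreated cells, 3.88 and 3.85 at 6 h, and 6.18 on both 24 h arrays. It was below control at 6 h (−0.77) and above it at 24 h (1.55), a change of direction that 79 genes showed, with 63 genes in the reverse order. Of 26 genes of the Notch pathway 9 were higher and 12 were lower. Its targets HEY1 and HES1 rose by 2.50 ± 0.12 and 2.33 ± 0.13.

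The class with the lowest median was that of the regulators of Ras, a small GTPase of growth factor signalling. Of 20 measured Ras regulators 16 were lower and 2 were higher, with a median of −1.06. SIPA1L1, a GTPase-activating protein of Rap, and RASAL2, one of Ras, both fell by 1.70. Classes of kinases and phosphatases did not share a direction. Stress and MAP kinases had 6 higher and 4 lower of 16 genes, MAP kinase kinase kinases 5 higher and 11 lower of 21, and the dual-specificity phosphatases and Sprouty brakes on MAP kinase signalling 11 higher and 9 lower of 30. Without control replicate 2 the higher members were 3 stress and MAP kinases and 2 MAP kinase kinase kinases. Of 9 protein kinase C genes 7 were lower and 1 was higher, with a median of −0.80. PRKCE fell by 2.83 ± 0.08, PRKCZ fell by 1.93 ± 0.09 and PRKCD fell by 1.26 ± 0.10. PRKCA, the classical alpha isoform, read 7.60 and 7.66 in untreated cells, 7.61 and 7.57 at 6 h, and 5.94 and 6.26 at 24 h. It was level with control at 6 h and fell by 1.53 ± 0.11 at 24 h. Of 18 receptor-type tyrosine phosphatases 8 were lower and 1 was higher, and all 9 had a mean signal of at least 5, as had 11 of the class. PTPRK fell by 3.57 ± 0.09, PTPRE fell by 3.26 ± 0.09 and PTPRM fell by 2.56 ± 0.14. MAP3K5 (ASK1), an upstream kinase of the JNK and p38 pathways, fell by 3.14 ± 0.10.

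Among the classes of adhesion and the cytoskeleton, some had mostly lower members and others did not. Of 29 focal adhesion and actin scaffold genes 17 were lower and 3 were higher (median −0.53). PTK2, focal adhesion kinase, read 9.23 and 9.18 in untreated cells and 5.84 and 6.02 at 24 h, a difference of −3.28 ± 0.09. SVIL, an actin-bundling protein, fell by 3.20 ± 0.08 and BCAR1 (p130Cas) fell by 1.45 ± 0.11. TNS3, a tensin, fell by 2.51 ± 0.10 (2 of 3 probe sets). Of 32 cell junction genes 16 were lower and 3 were higher. Of 22 claudins, the seal proteins of tight junctions, 8 were higher and 3 were lower, with a median of 0.20 that became −0.69 when scaled to all spike-ins. Of 17 immunoglobulin-type adhesion molecules 6 were higher and 3 were lower (0.13, scaled −0.76). Of 27 basement membrane and matrix glycoprotein genes 9 were higher and 9 were lower, and of 48 keratins 9 were higher and 5 were lower (0.08, scaled −0.81). The higher members were 3 claudins without control replicate 2 and 2 without 24 h replicate 1, and 3 immunoglobulin-type molecules without control replicate 2. CDH6, a cadherin of the kidney epithelium, fell by 3.55 ± 0.08, CLDN1, a tight junction claudin, fell by 2.94 ± 0.09 and the polarity protein PARD3 fell by 2.12 ± 0.08. VCAM1, an adhesion molecule for leukocytes, read 8.80 and 8.82 in untreated cells and 4.75 and 4.82 at 24 h, a difference of −4.03 ± 0.09.

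Of 14 formins, which nucleate actin filaments, 6 were lower and all 6 by at least 2-fold, with 1 higher. FHOD3 fell by 3.08 ± 0.08, FMNL2 fell by 2.54 ± 0.15 and DIAPH2 fell by 1.83 ± 0.11. Of 33 microtubule and centrosome genes 20 were lower and 6 were higher. MAP7, which recruits kinesin, fell by 2.54 ± 0.11 and CLASP1, which stabilizes microtubule ends, fell by 1.98 ± 0.09. Of 31 semaphorins, plexins and neuropilins 12 were lower and 7 were higher, with NRP1, a co-receptor of VEGF and semaphorins, at −2.92 ± 0.09 and SEMA3A at −2.30 ± 0.08. Of 64 protocadherins 25 were higher and none was lower, though only 4 had a mean signal of at least 5 and the median of 0.19 became −0.69 when scaled to all spike-ins. Without control replicate 1 or control replicate 2, 13 were higher, and without 24 h replicate 2, 14. PCDH10 rose by 3.53 ± 0.09, PCDH17 by 2.65 ± 0.09 and PCDH9 by 2.63 ± 0.10.

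Several classes of chromatin regulators had more lower than higher members. Of 33 SWI/SNF and CHD remodellers 21 were lower and 6 were higher. ARID1B, a DNA-binding subunit of SWI/SNF, read 7.75 and 7.89 in untreated cells, 6.64 and 6.51 at 6 h, and 3.45 and 4.0 at 24 h. Both 24 h values were below the 6 h values, which were below control, and the difference was −4.09 ± 0.16. CHD7 fell by 1.97 ± 0.13 and INO80 fell by 1.52 ± 0.13. Of 45 histone methyltransferases and demethylases 22 were lower and 8 were higher. JARID2, a partner of the Polycomb complex, was at −2.63 ± 0.12 and EHMT1 at −2.30 ± 0.10 (2 of 3 probe sets). Of 21 cohesin and SMC genes 10 were lower and 5 were higher, and STAG1, a cohesin subunit, fell by 2.98 ± 0.09. Histone acetyltransferases and deacetylases were split, with 11 of 29 higher and 10 lower and a median of 0.13 that became −0.75 when scaled to all spike-ins. The acetyltransferases KAT6B and CREBBP changed by −2.21 and −1.8.

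Of 21 RUNX, TEAD and SMAD factors and other nuclear effectors of signalling, 15 were lower and 2 were higher (median −0.45). RUNX2, the master factor of bone formation, read 9.65 and 9.78 in untreated cells, 7.19 and 7.13 at 6 h, and 5.57 and 5.69 at 24 h, a difference of −4.09 ± 0.09. TCF7L2, the Wnt effector, fell by 3.06 ± 0.12 and SMAD3, the TGF-beta effector, fell by 2.26 ± 0.09. TEAD1, the DNA-binding partner of YAP, fell by 1.96 ± 0.08 (2 of 3 probe sets). Of 14 transcription factors of the renal epithelium 3 were higher and 3 were lower, with PAX8 at −1.88 ± 0.08, SALL1 at −1.25 ± 0.08 and OSR2 at 2.67 ± 0.08. Of 13 E2F factors and RB family genes 9 were lower and 2 were higher, but with the mean of all probe sets only 5 were lower. E2F5 fell by 2.02 ± 0.10 and E2F3 fell by 1.47 ± 0.08. RB1, the retinoblastoma protein, read 7.30 and 7.59 in untreated cells, 7.59 and 7.27 at 6 h, and 6.60 and 6.35 at 24 h. The 24 h arrays were below the others (−0.97 ± 0.15), but only 1 of its 3 probe sets had that sign, and the mean of the 3 gave −0.29 (adjusted p = 0.0539).

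Of 51 nuclear pore proteins and transport receptors 30 were lower and 6 were higher (median −0.45). NUP153 of the nuclear basket fell by 1.75 ± 0.09 and the importin KPNA3 fell by 1.62 ± 0.09. Of 21 HECT ubiquitin ligases 14 were lower and 1 was higher, with NEDD4 at −1.56 ± 0.08 and SMURF2, which marks SMADs for degradation, at −1.40 ± 0.08. Of 32 aminoacyl-tRNA synthetases 19 were lower and 3 were higher. The 4 largest falls were those of mitochondrial enzymes, FARS2 at −2.71 ± 0.11, WARS2 at −1.83 ± 0.08, NARS2 at −1.24 ± 0.11 and LARS2 at −1.18 ± 0.09. Of 18 genes of purine and pyrimidine synthesis 9 were lower and 4 were higher, with GART at −1.34 ± 0.10, CTPS2 at −1.31 ± 0.09 and PFAS at −0.95 ± 0.09.

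To relate these classes to the length of their genes, the genes with a mean log2 signal of at least 5 were divided by the distance from start to end in RefSeq (GRCh38.p14). Of 978 genes shorter than 5 kb 52.7% were higher and 15.5% were lower, and their median was 0.30. Of 2807 genes of 20 to 50 kb 36.3% were higher and 31% were lower (median 0.04). Of 1037 genes of 100 to 200 kb 6.85% were higher and 74.8% were lower (median −0.73). Of 495 genes of 200 kb or more 5.05% were higher and 84% were lower, 60.8% by at least 2-fold, and the median was −1.25. Over genes of any signal the lower share was 6.58% under 5 kb, 49.9% at 100 to 200 kb and 43.3% of 1327 genes of 200 kb or more, with medians of 0.19, −0.27 and −0.11, so neither was most extreme in the longest genes. Within the brighter genes the share that was lower climbed with gene span, while on the spike-in scale every median moved down by the same amount. The median span was 12.9 kb in the genes higher by 2-fold, 122 kb in those lower by 2-fold and 25.7 kb in all genes, and the median signals of both changed sets were 6.73 and 6.78.

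**Figure D3:**
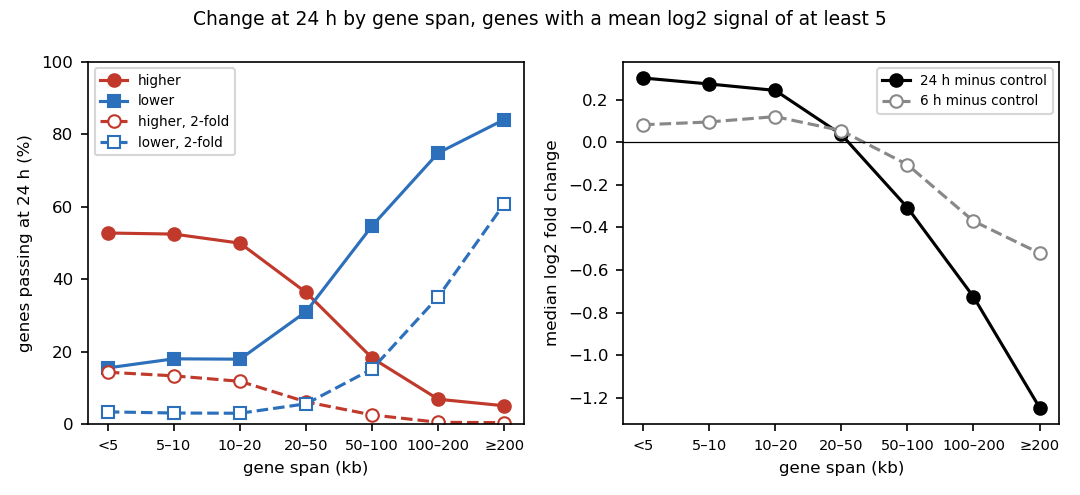
Genes with a mean log2 signal of at least 5, grouped by gene span in kilobases. The left panel gives the share that passed at 24 h (percent, filled: all, open: at least 2-fold) and the right panel the median log2 fold change at 24 h and 6 h. The share that was lower climbed from 15.5% under 5 kb to 84% at 200 kb or more, and the median fell from 0.30 to −1.25. Scaled to all spike-ins, medians above 0 fell below it.

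Some of the classes with more lower than higher members were long. The median span was 187 kb in the Ras regulators and in the protein kinase C family, 149 kb in the HECT ligases, 184 kb in the receptor-type phosphatases and 148 kb in the formins. Over members with a mean signal of at least 5, the medians of these classes were −1.06, −1.26, −0.73, −1.60 and −1.07, beside −0.73 in genes of 100 to 200 kb with such a signal. Other classes with more lower than higher members were nearer to the span of all genes, with 44.3 kb in the E2F and RB family, 30.7 kb in the aminoacyl-tRNA synthetases and 29.7 kb in purine and pyrimidine synthesis. The 4 largest falls among the synthetases were nonetheless in long genes, FARS2 of 522 kb, WARS2 of 109 kb, NARS2 of 139 kb and LARS2 of 161 kb. The HNRNP proteins, which bind pre-mRNA, had a median span of 14.2 kb, and 12 of 21 were lower and 5 higher, 2 without control replicate 1 or without 24 h replicate 2. The classes that rose most were short, with 6.38 kb in the immediate-early factors, 2.13 kb in the GADD45 family and 0.494 kb in the histones, beside a median of 0.30 in the brighter genes under 5 kb. How far gene length and class each account for these values was not tested. The very long PTPRD, a receptor phosphatase of 2299 kb, fell by 1.91 ± 0.10, and PDE10A, a phosphodiesterase of 661 kb, fell by 4.15 ± 0.11. KCNJ15, a potassium channel of 77.4 kb, had the largest fall of all genes, from 9.25 and 9.32 to 4.50 and 4.58 (−4.74 ± 0.08).

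Several short genes fell far, against the trend of their length. G0S2, an inhibitor of lipolysis that spans 0.979 kb, read 12.72 and 12.67 in untreated cells and 9.91 on both 24 h arrays, a difference of −2.79 ± 0.08. AMIGO2, an adhesion molecule of 4.25 kb, fell by 2.67 ± 0.08, DDIT4 (REDD1), an inhibitor of mTOR of 2.11 kb, fell by 2.39 ± 0.10, SPRY2, a brake on receptor kinase signalling of 5.15 kb, fell by 1.95 ± 0.08 and KRT19, a keratin of simple epithelia of 4.69 kb, fell by 2.12 ± 0.08. In the other direction PCDH9 spans 928 kb and read 4.41 and 4.32 in untreated cells and 7.04 and 6.95 at 24 h. Its 3 probe sets all had the same sign.

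Several housekeeping processes had more higher than lower members on the deposited scale and negative medians when scaled to all spike-ins. Of 37 autophagy genes 21 were higher and 9 were lower (median 0.32, scaled −0.56). MAP1LC3B, the marker of autophagosomes, rose by 1.92 ± 0.09, ATG12 by 1.28 ± 0.08 and GABARAPL1 by 1.23 ± 0.10, while ATG10 fell by 1.58 ± 0.08. Of 21 subunits of the V-ATPase, the proton pump of lysosomes, 12 were higher and 2 were lower (0.38, scaled −0.50). Of 26 genes of fatty acid oxidation 15 were higher and 1 was lower (0.35, scaled −0.53), with CPT2, which hands fatty acids to beta-oxidation, at 1.69 ± 0.08. Of 36 complex I subunits 19 were higher and 1 was lower (0.25, scaled −0.63), with NDUFA2 at 1.36 ± 0.09, and of 37 genes of complexes II to V 18 were higher and 3 were lower (0.20, scaled −0.68). In glycolysis 7 of 22 genes were higher, 3 without control replicate 2, and 6 were lower. The glucose transporter SLC2A1 fell by 1.58 ± 0.09 and BPGM, which makes bisphosphoglycerate, rose by 2.42 ± 0.09. Of 71 cytosolic ribosomal proteins 4 were higher and 8 were lower, but these counts depended on the setting. The lower members were 2 to 5 when any of the 6 arrays was left out, 16 when scaled to housekeeping genes and 25 with trended and robust eBayes, and with the mean of all probe sets 21 were higher.

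**Figure D4:**
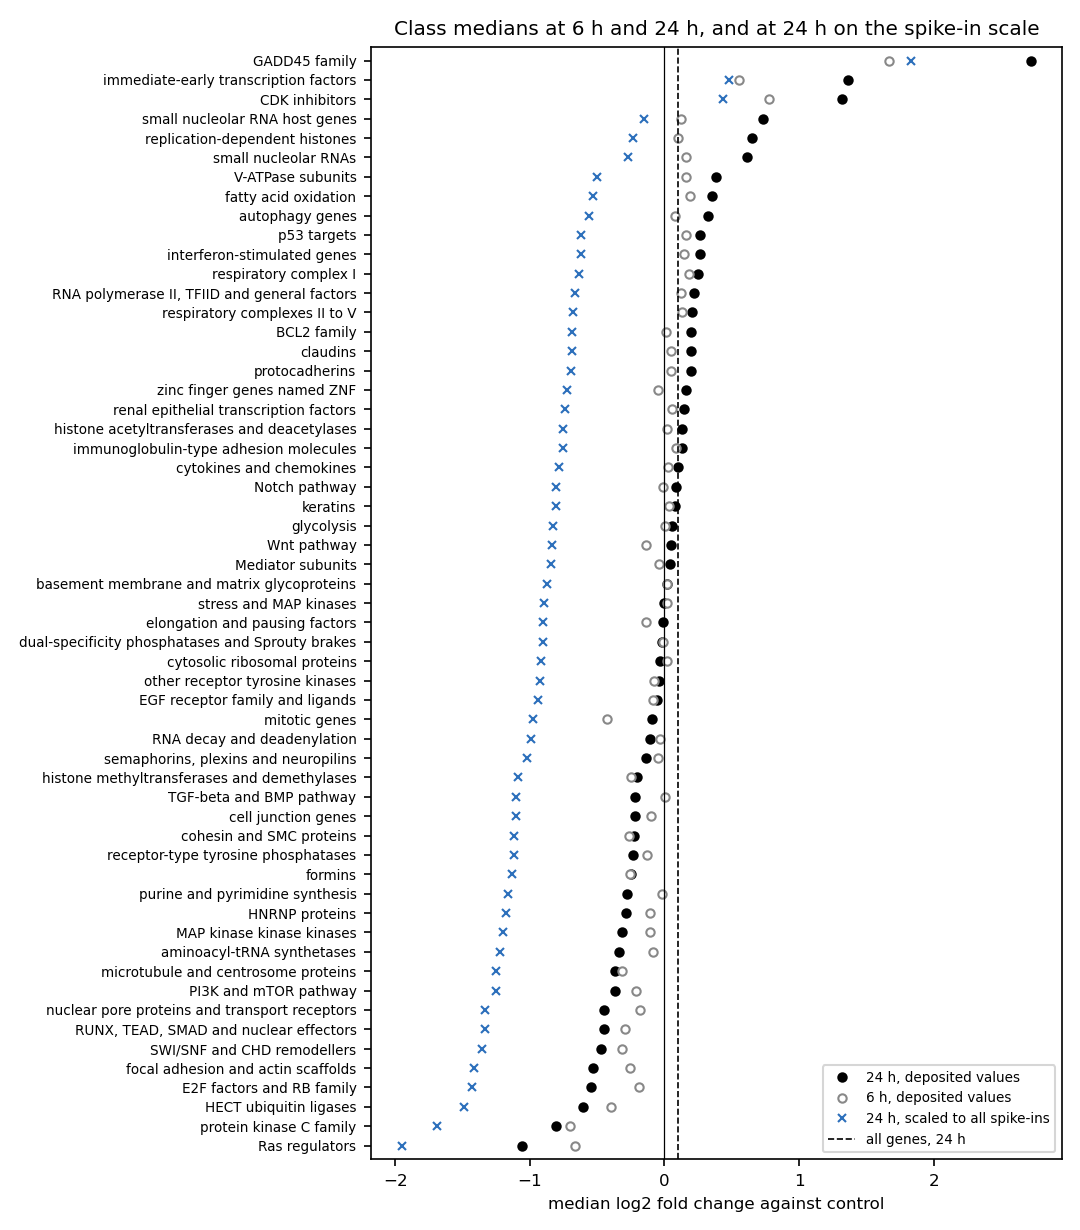
Median log2 fold change of each gene class against control at 24 h (filled), at 6 h (open) and at 24 h after scaling to all spike-ins (crosses), with a dashed line at the median of all genes at 24 h (0.10). The medians of the GADD45 family, the immediate-early factors and the CDK inhibitors were above 0 on both scales at 24 h. Those of host genes (0.73), histones (0.65), small nucleolar RNAs (0.61) and every class plotted below them were under 0 when scaled to all spike-ins. With that scaling 3 of 6 CDK inhibitors and 9 of 22 immediate-early factors were lower than in control.

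To see which late changes lay beyond those of 6 h, the 24 h arrays were set against the 6 h arrays, a comparison that shares the 24 h arrays with the one above. At 24 h 3858 genes were higher than at 6 h (21.2%) and 3048 were lower (16.7%). Histones were higher in 41 of 61 and small nucleolar RNAs in 41 of 64 genes, and their medians against the same control arrays were 0.10 and 0.16 at 6 h beside 0.65 and 0.61 at 24 h. Of the ZNF genes 196 of 491 were higher than at 6 h and 32 were lower. Of 39 mitotic genes 26 were higher than at 6 h and 2 were lower, with medians against control of −0.43 at 6 h and −0.09 at 24 h. Nuclear pore genes were lower than at 6 h in 27 of 51 and aminoacyl-tRNA synthetases in 16 of 32 genes, with medians against control of −0.18 and −0.09 at 6 h beside −0.45 and −0.34 at 24 h. Cytosolic ribosomal proteins were lower than at 6 h in 9 of 71 genes and higher in none.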

How the data were processed

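RNA of HK-2 cells was measured on 6 single-colour Affymetrix arrays, 2 for each of 3 groups. The deposited log2 values were made by the authors with robust multi-array average (RMA) analysis in Affymetrix Expression Console 1.1, per the study's methods and the submitters' processing notes. RMA corrects the background, sets all arrays to one distribution and summarizes each probe set, and nothing was normalized again for the main values. The number of arrays limits the precision.

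Of 49386 probe sets, 45253 named 1 gene in the platform annotation (45172 matched to current symbols by Entrez number), 93 were controls, 1327 named more than 1 gene and 2713 had no name here. Only those with 1 gene were used, and each of 18239 genes was represented by its brightest probe set on average over 6 arrays. RefSeq (GRCh38.p14) gave the span of 18189 genes (99.7%).

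Groups were compared by the two-sided test of limma 3.58.1 under R 4.3.3 (lmFit, then eBayes). A joint fit covered 3 groups and 6 arrays, and genes passed at 0.05 after the Benjamini-Hochberg method had been applied to all of them. A further count took passing genes whose log2 fold change was at least 1 in size. Gene classes are 61 lists and 55 families by symbol, described by counts and medians and not tested as sets. The text describes 57 of these classes, and the others are not reported here. Their members were chosen with earlier results of these data known, and the small nucleolar RNA family was added after values were seen. The text names examples from 836 genes. Among passing genes with separated arrays, these are the 20 largest rises and falls and up to 4 of each per class. All members of classes of at most 10 were added, as were the genes that the study measured by qRT-PCR, which are not reported here. AMIGO2, EGR1, G0S2, IER5, JUNB, MAFF, NR4A2 and NR4A3 fall outside this rule and were chosen after their values were seen.

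The alternatives tried were a block for the replicate number, averaging the probe sets of a gene, trended and robust eBayes, a fit without the 6 h arrays, a filter that kept genes with a log2 value of at least 5 on at least 2 arrays, scaling to spike-ins or housekeeping genes, an adjusted p under 0.01, the methods' rule (a 2-fold change at an unadjusted p under 0.01) and leaving out each array in turn. Counts over genes with a mean signal of at least 5 were added after seeing the data. Tables and plots were made in Python 3.11.15 with pandas 2.3.3, numpy 2.4.6 and matplotlib 3.10.9.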

Additional observations from a re-analysis of the deposited data

Results flagged for a closer look

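Control probe sets outside the gene tests were higher on both 24 h arrays than on both control arrays. The mean log2 signal of all 36 spike-ins was higher by 0.885 at 24 h and by 0.371 at 6 h. The 9 hybridization spike-ins were higher by 0.41 and 0.098, the 12 poly-A spike-ins by 1.211 and 0.541, and the other 15 spike-in probe sets by 0.909 and 0.4. The 23 nonspecific GC probe sets were higher by 0.272 at 24 h and differed by −0.018 at 6 h. DKK1 moved in opposite directions at the 2 times, with a log2 fold change of −0.775 at 6 h and 1.547 at 24 h and a difference of 2.321 between them (limma, adjusted p = 5.93e-06).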

How the results depend on the processing

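Scaling moved the counts most. Scaled to all spike-ins, the hybridization spike-ins or the poly-A spike-ins, 593, 1731 and 262 genes were higher at 24 h than in control (5685 in the deposited values) and 16107, 9832 and 17031 were lower (4201). At 2-fold, 153, 354 and 94 were higher (863) and 5425, 2577 and 11398 were lower (1347), and the mean of all probe sets gave 781 lower. Against 6 h, the same scalings gave 462, 1030 and 196 higher (3858) and 12876, 8036 and 14338 lower (3048), and an adjusted p under 0.01 gave 2120 higher. Scaling by construction shifts all genes of an array alike, and for the other settings the cause was not tested. Leaving out each array in turn gave 4082 to 5421 genes higher and 3743 to 4043 lower at 24 h, 822 to 931 and 1314 to 1416 at 2-fold, and 2361 to 3683 higher and 2199 to 2925 lower against 6 h. The lowest count against 6 h came without 6 h replicate 2 (2361), with 2523 without 6 h replicate 1. The methods' rule gave 863 and 1347 genes.

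Replicate numbers did not pair the arrays, since deviations of same-numbered arrays correlated at 0.046, −0.056 and −0.058. With the replicate block 5619 genes were higher and 4097 lower, 863 and 1347 of them by 2-fold, and 113 of 114 class counts stayed within 1.5 times. Most named genes were chosen for the size of their change, so their stability does not extend to genes with smaller changes. In 143 of 170 named genes, counting those with only 1 probe set, all probe sets had the same sign. No named gene changed direction under any alternative, and 2705 of 2719 values kept their side of the threshold. The exceptions were RB1 with the mean of all probe sets (−0.29) and, scaled to the poly-A spike-ins, ATG12, BMP4, CCNT1, CTR9, DKK1, EGR1, GABARAPL1, ISG15, MED18, NDUFA2, SNHG7, TAF7 and ZFP36. Of 114 class counts, 103, 84 and 107 moved by over 1.5 times with the 3 spike-in scalings, 18 with the filter on dim probe sets and 17 with the mean of all probe sets. The filter left 12 histones and 20 small nucleolar RNAs higher, from 46 and 44, by testing fewer of them. Probe sets near the array's floor limit what dim genes can show: of genes with a mean signal under 3, 1.12% were lower and 19.7% higher.

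Leaving out 1 array changed other class counts by over 1.5 times. Without control replicate 2, 3 EGF family genes were higher (5 with all arrays), 3 microtubule genes (6) and 0 Ras regulators (2, also 0 without 24 h replicate 2 and 1 without control replicate 1), and 2 fatty acid oxidation genes and 1 V-ATPase gene were lower (1 and 2, the latter also 1 without 24 h replicate 1). Without control replicate 1 or 24 h replicate 1, 5 junction genes were higher (3) and 1 protocadherin was lower (0). Without 24 h replicate 1, 4 receptor-type phosphatases were higher (1). Of the RUNX, TEAD and SMAD list 1 was higher (2) without either control array or 24 h replicate 1, and no formin was higher (1) without any array except 24 h replicate 2.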
